A study of Mus musculus with 8 samples.

Results

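The proteasome genes were followed through dendritic cells of 2 tissues. They were all genes with a symbol of Psma, Psmb, Psmc, Psmd, Psme, Psmf or Psmg plus a number that had a probe set naming only that gene, which gave 48 genes of 19938 measured, as many as a RefSeq gene table holds under these names. The rule used names and no measured value. The comparison set myeloid dendritic cells of bone marrow against classical dendritic cells of spleen, both sorted by flow cytometry, on 4 arrays per tissue, 1 of each tissue from each of 4 mice. All the mice were 8 weeks old, untreated as far as the labels say, and of genotype CX3CR1-gfp/+, so 1 copy of this chemokine receptor gene carried green fluorescent protein in both groups, and no group had 2 intact copies. The arrays were Affymetrix mogene 1.0 ST, whose probe sets each combine many probes across a transcript, and the RNA input was very small. The sources used here do not give the surface markers of the sorts.

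The proteasome degrades proteins that carry ubiquitin chains. Its barrel-shaped 20S core is built of alpha subunits, which form the gates, and beta subunits, of which Psmb6, Psmb7 and Psmb5 hold the catalytic sites. The 19S cap recognises and unfolds the substrate. In cells exposed to interferon, and constitutively in many leukocytes including dendritic cells, Psmb9, Psmb10 and Psmb8 take the places of Psmb6, Psmb7 and Psmb5 to form the immunoproteasome, and Psme1 and Psme2 form the PA28 activator. These 5 inducible subunits shape the peptides that dendritic cells load on MHC class I.

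Psmb9 and Psmb8 lie close together in the MHC on chromosome 17, with Tap1 between them, in the gene order Psmb9, Tap1, Psmb8, Tap2. Psmb9 and Tap1, a subunit of the peptide transporter, are read in opposite directions from starts 225 bases apart, so that the stretch before Psmb9 is also that before Tap1. The 250 bases before the RefSeq start (build GRCm38.p6) are shown 5′ to 3′ for Psmb9, the member that changed most, for its MHC neighbour Psmb8, and for the constitutive subunits Psmb6 and Psmb5 that they replace. Capitals mark matches on either strand to 4 motifs: the interferon-stimulated response element (ISRE, core letters) GAAANNGAA, the interferon gamma activated site (GAS) TTCNNNGAA, the antioxidant response element (ARE) TGACNNNGC bound by Nfe2l1 and Nfe2l2, and the GC box GGGCGG.
Psmb9, chr17:34187331-34187580, minus strand: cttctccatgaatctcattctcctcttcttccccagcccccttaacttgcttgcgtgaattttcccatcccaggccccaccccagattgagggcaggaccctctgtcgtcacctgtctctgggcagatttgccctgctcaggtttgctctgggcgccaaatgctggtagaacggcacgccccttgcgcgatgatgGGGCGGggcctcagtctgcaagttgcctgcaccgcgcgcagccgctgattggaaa
Psmb8, chr17:34197945-34198194, plus strand: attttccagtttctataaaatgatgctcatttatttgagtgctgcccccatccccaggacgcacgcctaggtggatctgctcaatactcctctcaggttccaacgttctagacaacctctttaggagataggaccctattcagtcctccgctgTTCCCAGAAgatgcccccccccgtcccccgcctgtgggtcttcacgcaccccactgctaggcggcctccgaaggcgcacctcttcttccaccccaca
Psmb6, chr11:70525107-70525356, plus strand: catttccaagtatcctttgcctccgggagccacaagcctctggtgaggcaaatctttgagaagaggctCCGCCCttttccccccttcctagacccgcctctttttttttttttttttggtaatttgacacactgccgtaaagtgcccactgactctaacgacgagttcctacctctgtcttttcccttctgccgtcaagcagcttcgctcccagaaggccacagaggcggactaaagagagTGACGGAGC
Psmb5, chr14:54617996-54618245, minus strand: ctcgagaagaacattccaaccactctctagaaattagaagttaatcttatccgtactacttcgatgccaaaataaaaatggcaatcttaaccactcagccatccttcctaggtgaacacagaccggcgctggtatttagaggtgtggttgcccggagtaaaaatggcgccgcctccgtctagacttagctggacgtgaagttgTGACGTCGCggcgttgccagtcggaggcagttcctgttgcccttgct
The Psmb9 window held a GC box from 55 to 50 bases before the start and no ISRE, GAS or ARE. Psmb8 held a GAS match from 97 to 89 bases before its start, Psmb6 an ARE match from 9 to 1 and a GC box from 182 to 177, and Psmb5 an ARE match from 47 to 39. Members on a single other chromosome were left out, a limit not set for the windows of all genes. Windows were used for 40 of the members (43 windows), and Psmb7 was among those without one. An ARE match stood in 11.6% of them and in 10.2% of all 32851 windows, an ISRE match in 6.98% against 7.13%, a GAS match in 4.65% against 7.02%, and a GC box in 53.5% against 32.7%. A match is a description of letters and not a site of binding. The search took exact letters in these 250 bases only, so an absent match does not mean that no such element is present. No motif in the list overlapped another in the 4 sequences shown.

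Between the tissues most proteasome genes differed little. With limma, a linear model with spread moderated over all genes, and Benjamini-Hochberg adjustment over all 19938 genes, 3 of 48 members (6.25%) were lower in bone marrow at an adjusted p under 0.05, namely Psmb9, Psme1 and Psmg2, where 9.20% of all genes were lower. No member was higher, where 9.26% of all genes were, and at an unadjusted limma p under 0.05 no member was higher and 8 (16.7%) were lower, where 12.8% and 13.9% of all genes were. With the mouse as a block 2 members were lower, Psmb9 and Psmg2, where 8.33% of all genes were. Of the log2 fold changes, bone marrow minus spleen, 37 were below 0 and 11 above, with a median of -0.08, where 52.2% of all genes were below 0 with a median of -0.01. Without bone marrow replicate 1 the members' median was -0.05, and 32 were below 0. The median size of the log2 fold change, whatever its sign, was 0.12 for the members and 0.10 for all genes. With the dimmest 40% of genes left out, 47 members remained and 3 were called. Of the 11963 genes then left, 3480 were called, 50% of them lower. The 95% interval of the fold change, not adjusted for the number of genes, lay within 1.5-fold in either direction for 46 members, the exceptions being Psmb9 and Psmg2, and within 2-fold for all 48. Arrays measure RNA from sorted cells in bulk, in which fewer cells of a type and less RNA per cell cannot be told apart.

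**Figure D1:**
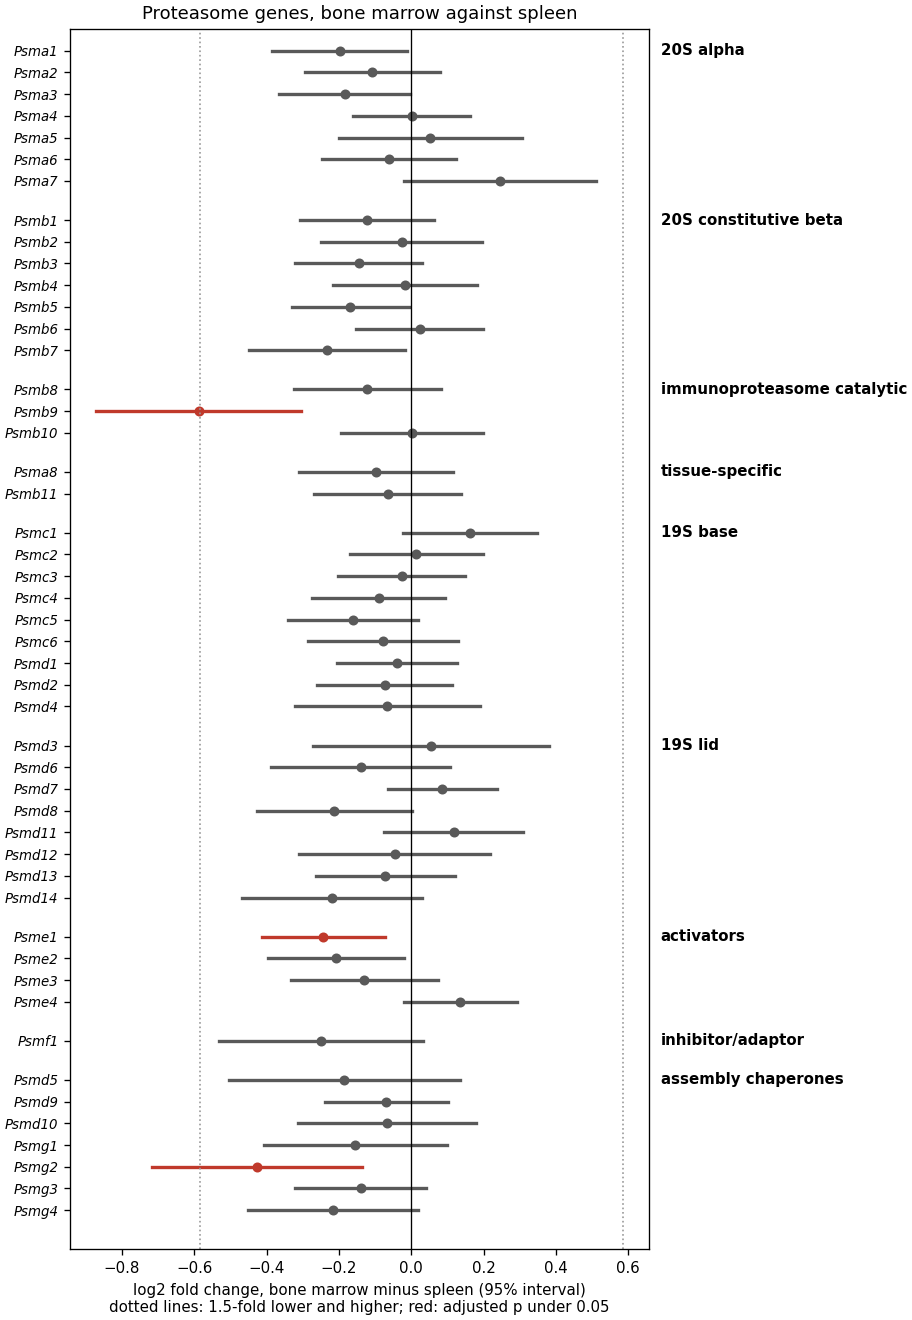
Log2 fold change, bone marrow minus spleen, of each of the 48 proteasome genes (points) with its 95% interval (lines), grouped by role; red marks an adjusted p under 0.05 and the dotted lines mark 1.5-fold. Only Psmb9, Psme1 and Psmg2 are red, all to the left of 0, and most intervals cross 0.

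Psmb9, the inducible subunit that replaces the caspase-like Psmb6, showed the largest difference of any member. Its intensity in replicates 1 to 4 was 2189, 2560, 2696 and 3226 for bone marrow and 4123, 4559, 4160 and 3174 for spleen. The bone marrow arrays were low in mice 1 to 3, while in mouse 4 both tissues stood at nearly the same intensity, so the groups overlapped by that mouse's arrays. Psmb9 was 1.50-fold lower in bone marrow (95% interval 1.23 to 1.83, log2 fold change -0.59 ± 0.13 SE, limma, n = 4 per group, adjusted p = 0.0060). Within mice it was 1.88-fold, 1.78-fold and 1.54-fold lower in mice 1, 2 and 3, while in mouse 4 the log2 difference was 0.02. The call held in all 15 alternative fits, with adjusted p from 0.0013 to 0.024, and with the mouse as a block the adjusted p was 0.013. Markers of monocytes, macrophages and neutrophils also stood higher in these bone marrow arrays, with summed levels given below, and their part in this and the other differences was not tested.

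Psmb8, the inducible subunit with the chymotrypsin-like site, had intensities of 1849, 2144, 1981 and 2457 in bone marrow and 2286, 2330, 2370 and 2140 in spleen. The spleen values fell inside the wider bone marrow range. The log2 fold change was -0.12 ± 0.09 SE (limma adjusted p = 0.51), with a 95% interval from -0.32 to 0.08.

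Psmb10, the inducible subunit with the trypsin-like site, stood at 2510, 2938, 2724 and 3294 in bone marrow and at 2790, 2948, 2893 and 2765 in spleen. The spleen range lay wholly within that of bone marrow. Its log2 fold change was 0.00 ± 0.09 SE (limma adjusted p = 0.99, 95% interval -0.19 to 0.20). As with Psmb9 and Psmb8, bone marrow was lower than spleen in mice 1 to 3 and higher in mouse 4. Constitutive members, among them Psmb1, Psmb2 and Psmb4, had the same signs, so these are not particular to the inducible subunits.

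The PA28 activator opens the gate of the core. Its alpha subunit Psme1 had intensities of 1680, 1781, 1707 and 1974 in bone marrow and 2135, 2167, 2010 and 2127 in spleen. The 4 bone marrow arrays all lay below the 4 spleen arrays, as in 10.2% of all genes. Psme1 was 1.18-fold lower in bone marrow (log2 fold change -0.24 ± 0.08 SE, limma, n = 4 per group, adjusted p = 0.048), a call that ended with the mouse as a block (adjusted p = 0.10), with median centring (0.073), and without any 1 array other than bone marrow replicate 4 (0.0505 to 0.13).

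The beta subunit of PA28, Psme2, stood at 2264, 2559, 2206 and 2720 in bone marrow and 2686, 2913, 2923 and 2713 in spleen. Only bone marrow replicate 4 reached the spleen range. Its log2 fold change of -0.21 ± 0.09 SE did not pass (limma adjusted p = 0.14), except with quantile normalization (-0.27, adjusted p = 0.018).

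Psme3, which forms the nuclear PA28 gamma activator and is not induced by interferon in the same way, had intensities of 803, 950, 798 and 966 in bone marrow and 963, 937, 1064 and 876 in spleen. These ranges overlapped, with a log2 fold change of -0.13 ± 0.09 SE (limma adjusted p = 0.47). Psme4, the PA200 activator, ran the other way: its 4 bone marrow arrays, from 903.3 to 943.3, all lay just above the 4 spleen arrays, from 811.5 to 903.1, as in 10.4% of all genes, with a log2 fold change of 0.14 ± 0.07 SE (limma adjusted p = 0.27).

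**Figure D2:**
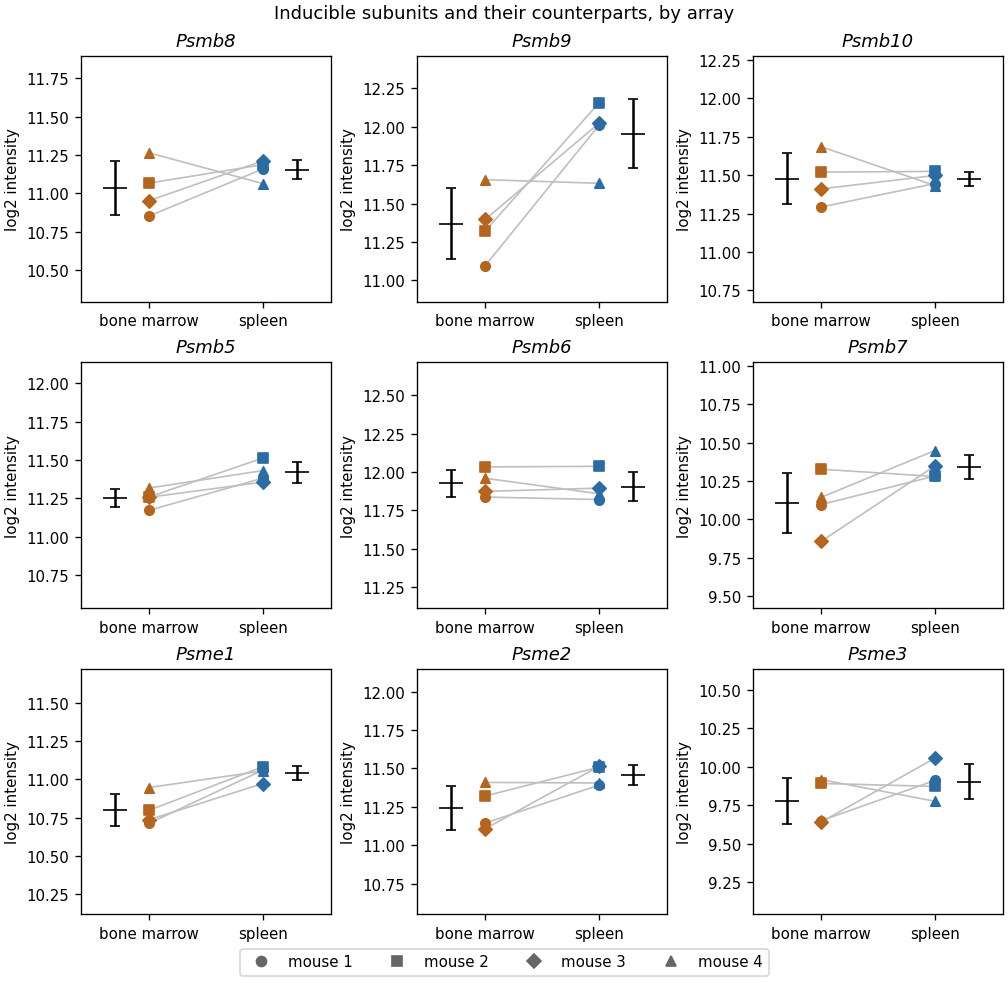
Log2 intensity by array of the inducible subunits Psmb8, Psmb9, Psmb10, Psme1 and Psme2 and of Psmb5, Psmb6, Psmb7 and Psme3, in bone marrow (brown) and spleen (blue); grey lines join the arrays of a mouse, black bars are the mean ± SD of 4 arrays, and every panel spans the same number of log2 units. Psmb9 moves most, and its line is flat in mouse 4.

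The catalytic subunits that these replace were compared next. Psmb6, the constitutive partner of Psmb9, stood at 3656, 4189, 3751 and 3979 in bone marrow and 3616, 4200, 3806 and 3712 in spleen. The ranges nearly coincided, with a log2 fold change of 0.02 ± 0.08 SE (limma adjusted p = 0.93, 95% interval -0.15 to 0.20).

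Psmb5, the constitutive partner of Psmb8, had 2308, 2452, 2448 and 2552 in bone marrow and 2668, 2921, 2621 and 2761 in spleen. The bone marrow arrays all lay below the spleen arrays, as in 10.2% of all genes. The log2 fold change of -0.17 ± 0.07 SE did not pass (limma adjusted p = 0.17, or 0.046 with quantile normalization). Psmb7, the constitutive partner of Psmb10, ranged from 928 to 1284 in bone marrow and from 1242 to 1397 in spleen (-0.23 ± 0.10, adjusted p = 0.15, or 0.049 without bone marrow replicate 2).

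The log2 ratio of an inducible subunit to its constitutive partner within each array was compared between tissues with exact two-sided permutation tests over arrays. Only the change in such a ratio can be read, since 2 probe sets differ in brightness for reasons other than RNA. The log2 ratio of Psmb9 to Psmb6 was -0.74, -0.71, -0.48 and -0.30 in bone marrow and 0.19, 0.12, 0.13 and -0.23 in spleen. All bone marrow values lay below all spleen values, and the ratio was lower in 4 of 4 mice. The difference was -0.61 (exact permutation p = 0.029, adjusted p = 0.086 over 3 ratios), where 0.029 is the smallest p that 4 arrays against 4 allow, so a single ratio of the 3 could not pass after adjustment.

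The ratio of Psmb8 to Psmb5 ran from -0.32 to -0.05 in bone marrow and from -0.37 to -0.15 in spleen, a difference of 0.05 (exact permutation p = 0.54, adjusted p = 0.54). These values were interleaved. The ratio of Psmb10 to Psmb7 was 1.20, 1.19, 1.55 and 1.54 in bone marrow and 1.16, 1.25, 1.15 and 0.98 in spleen, a difference of 0.24 (exact permutation p = 0.14, adjusted p = 0.21). It was thus above the spleen range in bone marrow replicates 3 and 4 and inside it in replicates 1 and 2.

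**Figure D3:**
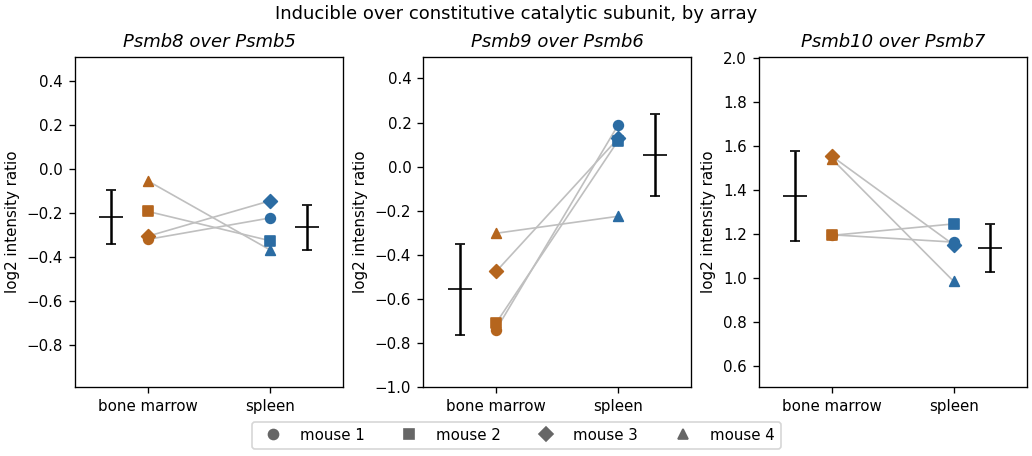
Log2 ratio of the intensity of an inducible subunit to that of its constitutive partner in each array, for Psmb8 over Psmb5, Psmb9 over Psmb6 and Psmb10 over Psmb7; lines join the arrays of a mouse and black bars are the mean ± SD of 4 arrays. Only in the middle panel do the tissues not overlap, and there mouse 4 moves least.

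Averaged over the 5 inducible subunits, log2 intensity ran from 11.02 to 11.39 over the bone marrow arrays and from 11.32 to 11.49 over those of spleen. Over the 41 constitutive members, which leave out the inducible and the tissue-specific genes, it ran from 9.85 to 10.07 and from 10.00 to 10.12. The difference of these means within an array was 1.17, 1.14, 1.21 and 1.34 in bone marrow and 1.40, 1.42, 1.33 and 1.32 in spleen. Bone marrow replicate 4 overlapped the spleen arrays and the other bone marrow arrays did not. Of the inducible subunits 2 of 5 were lower at the threshold, with a median log2 fold change of -0.21. Their values ran from -0.59 (Psmb9) to 0.00 (Psmb10), so Psmb9 weighs most in the average, and an average without it was not taken. Of the constitutive members 1 of 41 was lower, with a median of -0.07, where 9.20% of all genes were lower. With the mouse as a block 1 of 5 and 1 of 41 were lower, where 8.33% of all genes were.

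The alpha ring of the core showed no call among 7 subunits, whose log2 fold changes had a median of -0.06. Psma7 had the highest, at intensities of 1679 to 2361 in spleen and 2074 to 2737 in bone marrow (0.25 ± 0.12 SE, limma adjusted p = 0.23). Its log2 difference within mice 1 to 4 was 0.02, 0.17, 0.08 and 0.71, so most of it came from mouse 4, and without spleen replicate 4 the log2 fold change was 0.14. Psma1 had the lowest, at 3098 to 3829 in spleen and 2743 to 3135 in bone marrow (-0.20 ± 0.09, adjusted p = 0.16, or 0.046 with quantile normalization). Psma3 was lower without overlap, as in 10.2% of all genes, at 2822 to 3284 in bone marrow and 3288 to 3903 in spleen. For Psma3 the gap was small (-0.18 ± 0.08, adjusted p = 0.18). Its 3 probe sets gave log2 fold changes of -0.18, -0.20 and -0.19. Psma2, Psma4, Psma5 and Psma6 lay between -0.11 and 0.05, and the 2 probe sets of Psma5 had opposite signs (0.05 and -0.08).

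Among the 7 constitutive beta subunits none was called either. The structural subunits Psmb1, Psmb2, Psmb3 and Psmb4 had log2 fold changes of -0.12, -0.03, -0.15 and -0.02. Psmb3 was the only one of these without overlap, at 1527 to 1708 in bone marrow and 1718 to 2012 in spleen (limma adjusted p = 0.30). Of all genes 10.2% were lower without overlap. The other probe set of Psmb3 had a log2 fold change of -0.29.

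The 19S base holds the ring of ATPases, Psmc1 to Psmc6, that unfolds substrates, with the scaffold subunits Psmd1 and Psmd2 and the ubiquitin receptor Psmd4. No base gene of 9 was called, and their log2 fold changes ran from -0.16 (Psmc5, limma adjusted p = 0.25) to 0.16 (Psmc1, adjusted p = 0.26). Psmc1 was higher in bone marrow in 4 of 4 mice, and both of its probe sets were higher (0.16 and 0.25). Psmc2, Psmc3 and Psmd1 lay within 0.04 of 0, and Psmc4, Psmc6, Psmd2 and Psmd4 between -0.09 and -0.07.

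The 19S lid removes ubiquitin chains from substrates through Psmd14, a deubiquitinating metalloprotease. Psmd14 stood at 822, 1005, 923 and 906 in bone marrow and at 838, 1092, 1113 and 1241 in spleen. It was lower in bone marrow in 4 of 4 mice, although spleen replicate 1 lay among the bone marrow values (log2 fold change -0.22 ± 0.11 SE, limma adjusted p = 0.26). Without spleen replicate 1 it passed (-0.33, adjusted p = 0.033). None of the 8 lid genes was called with all arrays. Psmd7 was higher without overlap, as in 10.4% of all genes, at 766.0 to 822.1 in bone marrow and 739.8 to 765.1 in spleen. Its log2 fold change was only 0.09 ± 0.07 (adjusted p = 0.54). The highest log2 fold change was that of Psmd11 (0.12, adjusted p = 0.50), and Psmd3, Psmd6, Psmd8, Psmd12 and Psmd13 lay between -0.21 and 0.05.

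Assembly of the core and base depends on chaperones that leave the finished complex. All 7 of those measured had log2 fold changes below 0, where 37 of all 48 members and 52.2% of all genes did. The values of the chaperones ran from -0.43 to -0.07 with a median of -0.15, and 1 was called. Psmg2, which pairs with Psmg1 to start the alpha ring, had intensities of 208, 280, 299 and 329 in bone marrow and 361, 323, 370 and 432 in spleen. Bone marrow replicate 4 reached just above spleen replicate 2, and otherwise the tissues were apart. Psmg2 was 1.34-fold lower in bone marrow (log2 fold change -0.43 ± 0.13 SE, limma, n = 4 per group, adjusted p = 0.043, and 0.020 with the mouse as a block). The call ended with median centring (0.079) and when bone marrow array 1, 2 or 3, or spleen array 1, 3 or 4, was left out (adjusted p from 0.055 to 0.12). Without bone marrow replicate 1, its lowest array, the log2 fold change was -0.29. Psmg1, Psmg3 and Psmg4 had values of -0.15, -0.14 and -0.22, and the base chaperones Psmd5, Psmd9 and Psmd10 of -0.18, -0.07 and -0.07.

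Psmf1, the PI31 protein that inhibits the core in vitro, ranged from 283 to 377 in bone marrow and from 330 to 493 in spleen (log2 fold change -0.25 ± 0.13 SE, limma adjusted p = 0.26). The top of the spleen range was replicate 1, at 492.5, and without that array the log2 fold change was -0.12. The remaining members belong to proteasomes of other tissues: Psma8, the alpha subunit of testis, ranged from 83.7 to 109 in bone marrow and from 96.5 to 117 in spleen, and Psmb11, the thymus subunit, from 97.7 to 130.0 and from 111 to 122. Neither differed at the threshold (limma adjusted p = 0.65 and 0.78), and no background value accompanies the data, so whether either was expressed is unknown.

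The members also moved together by array within a tissue. Bone marrow replicate 1 was the lowest of the 4 bone marrow arrays in 31 of 48 members (64.6%), against 21.8% of all genes, and spleen replicate 4 was the lowest spleen array in 22 (45.8%), against 27.1%. Members are not independent, so these shares only describe the arrays. A total of 10 members were lower in bone marrow in 4 of 4 mice, where 15.6% of all genes were, and 4 were higher in 4 of 4 (Psma7, Psmc1, Psmd7 and Psme4), where 15.1% were. The groups did not overlap in 4 members that were lower in bone marrow (Psma3, Psmb3, Psmb5 and Psme1; 8.33%, where 10.2% of all genes did so) and 2 that were higher (Psmd7 and Psme4; 4.17%, where 10.4% did so).

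Most genes that work with the proteasome missed the threshold, as did most of all genes. Of 20 measured partners (receptors, deubiquitinases, shuttles and regulators), 2 were higher and 1 lower, with a median log2 fold change of 0.02. Of all genes 9.26% were higher and 9.20% lower. Nfe2l2, the NRF2 factor that induces proteasome genes under oxidative stress, stood at 1200, 1219, 1294 and 1349 in bone marrow and 669, 462, 650 and 642 in spleen. Every bone marrow array exceeded every spleen array by a wide margin, and Nfe2l2 was 2.11-fold higher (log2 fold change 1.08 ± 0.11 SE, limma, n = 4 per group, adjusted p = 1.6e-05). Nfe2l1, which restores proteasome genes when the proteasome is inhibited, had geometric mean intensities of 803.5 in spleen and 774.6 in bone marrow (-0.05 ± 0.09, adjusted p = 0.83). Akirin2, which brings proteasomes into the nucleus, was 1.20-fold higher (adjusted p = 0.025), and the shuttle Ubqln1 was lower (-0.32, adjusted p = 0.030); with the mouse as a block the list had 1 call higher and none lower. The core maturation factor Pomp had a log2 fold change of -0.14 (adjusted p = 0.38).

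Downstream, 15 genes of peptide trimming and class I loading were measured. Of these 2 were higher, the lectin chaperones Canx (0.43) and Calr (0.26), and none lower, where 9.26% and 9.20% of all genes were. The Calr call ended with the mouse as a block (adjusted p = 0.071). Tap1, which shares the stretch before its start with Psmb9, had intensities of 3295, 3266, 3471 and 4020 in bone marrow and 3854, 3980, 3927 and 3735 in spleen. Bone marrow replicates 1 to 3 lay below the spleen arrays and replicate 4 above them, and the log2 fold change was -0.15 ± 0.08 SE (limma adjusted p = 0.32, 95% interval -0.33 to 0.04). This interval stands beside that of Psmb9, from -0.87 to -0.30, and the difference between them was not tested. Tap2 had a log2 fold change of -0.11 (adjusted p = 0.66).

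Interferon-responsive genes were often higher in bone marrow. Over all genes the shares were 9.26% higher and 9.20% lower. Of 20 type I interferon targets and receptors 13 were higher and none lower, with a median log2 fold change of 0.56, among them the antiviral synthetase Oas3 (1.17), Oasl1 (0.92) and Oasl2 (0.81). Of 18 genes of interferon signalling and interferon gamma targets 7 were higher, including the GTPases Gbp3 (1.35) and Iigp1 (0.92) and the chemokine Cxcl10 (0.90). The 1 lower gene was Jak2, a kinase of the interferon gamma receptor, at 760 in bone marrow and 2220 in spleen (-1.55 ± 0.10 SE, limma adjusted p = 2.0e-07). Irf1 and Nlrc5, factors that drive immunoproteasome and class I genes, had log2 fold changes of 0.08 ± 0.09 (adjusted p = 0.65) and 0.32 ± 0.11 (adjusted p = 0.071). With the mouse as a block 7 genes of this list were again higher, but Nlrc5 passed (adjusted p = 0.048) and Ifngr2, a chain of the interferon gamma receptor, no longer did (adjusted p = 0.077). Cell division genes went the other way, with 12 of 16 lower, where 9.20% of all genes were, none higher and a median of -0.55. Among those lower were Tyms (-1.15), Rrm2 (-0.93) and Bub1 (-0.90).

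**Figure D4:**
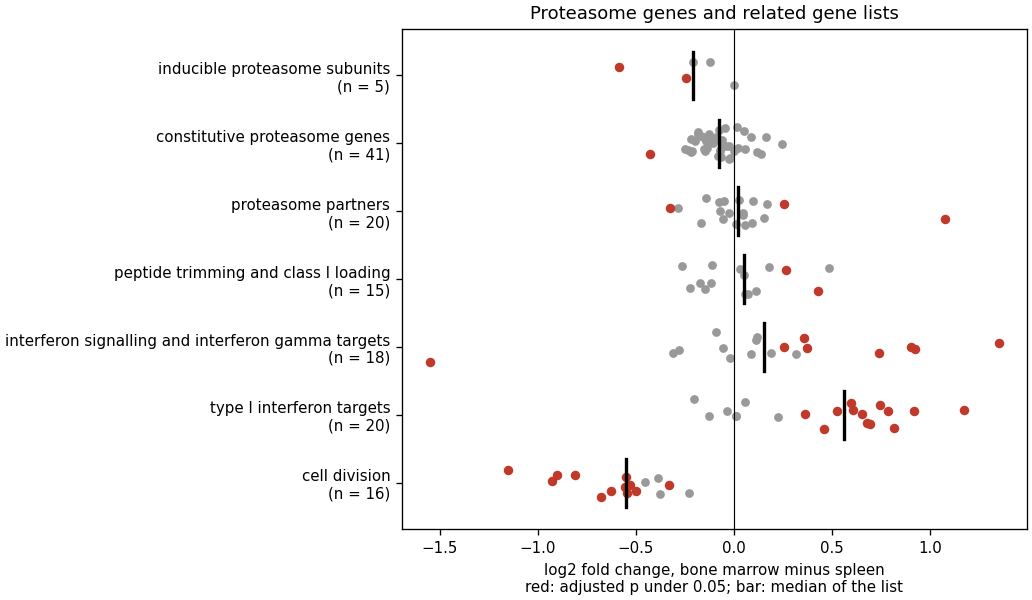
Log2 fold change, bone marrow minus spleen, of the inducible and constitutive proteasome genes and of the genes of 5 related lists (points; vertical spread within a row carries no value); red marks an adjusted p under 0.05 and bars are list medians. The medians are -0.21 for the inducible subunits, -0.07 for the constitutive members and 0.56 for the type I interferon targets.

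Markers of the labelled and of other cell types were measured in the same arrays. Of all genes 9.26% were higher in bone marrow and 9.20% lower. Of 9 dendritic genes 3 were lower in bone marrow (Itgax, Flt3 and Zbtb46) and none higher. Each of the 10 measured monocyte and macrophage genes stood higher in bone marrow, with summed intensities of 34236 to 41611 against 8193 to 9486 in spleen, and all 10 neutrophil genes, with 20736 to 28574 against 1446 to 1745. Of 7 B cell genes 4 were lower and 1 higher (sums of 1511 to 1655 against 3137 to 3621), and of 6 T and NK cell genes 5 were lower (1039 to 1382 against 2826 to 3112). Of 5 erythroid genes 4 were higher (sums of 814 to 1231 against 350.0 to 515), and of 4 plasmacytoid dendritic cell genes 1 was higher and 2 lower (3165 to 4288 against 2529 to 2997). No marker was listed at 0 on any array.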

How the data were processed

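The deposited table holds linear intensities per probe set, which the authors made in Affymetrix Expression Console, version 1.4 per the submitters' processing notes. For background correction, scaling and probe summaries the method was not given in the sources used. Array medians over the genes used lay between 143 and 150. The number of arrays, 4 per tissue, limits the precision. Of 35556 probe sets, 21789 had exactly 1 symbol in a platform annotation table, 1621 several and 12146 none; the brightest per gene was kept (19938 genes). Intensities were converted to log2 and fitted with limma 3.58.1 in R 4.3.3 (lmFit and eBayes, no filter). The fit was tested on simulated data with 200 genes changed 2-fold among 19938, of which 96% were recovered. Changes below 2-fold, as all those of the members were, were not simulated. P-values measure the spread between the arrays of a tissue, 1 per mouse.

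Arrays that share a replicate number share a mouse, per the labels' descriptions. The deviations of a mouse's 2 arrays from their group means correlated across genes at 0.10, -0.09, -0.18 and -0.05 for mice 1 to 4. The labels give the mouse but name no test, so the values given are from a model without a mouse term, and a second model with the mouse as a block was an alternative.

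Alternatives were a replicate block, quantile normalization, median centring, leaving out the dimmest 40% of genes, averaging probe sets, an intensity trend, array weights and leaving out each array. Ratios were tested by exact permutation. The members, lists and tests were chosen with earlier results of these data known. Named were the inducible subunits, their counterparts, every called member and the largest rise and fall per role, with up to 3 called genes per direction of each related list; other genes were named after their values were seen. Motifs were searched in RefSeq windows matched by symbol.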

Additional observations from a re-analysis of the deposited data

Results flagged for a closer look

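In 4 of 102 sets of 4 arrays, 1 array lay far from the other 3, with a gap to the nearest of over Dixon's 95% critical share of the whole range; chance gives about 1 in 20. Psmd3, a lid scaffold subunit, stood at 483 in spleen replicate 4 against 685 to 705 in the other spleen arrays. Psmc4, an ATPase of the base, stood at 552 in spleen replicate 4 against 624 to 639. The chaperone Psmg4 went the other way in the same array, at 971 against 740 to 747. Psmd10, a chaperone also known as gankyrin, stood at 943 in spleen replicate 3 against 711 to 734. None of these 4 genes was called between the tissues.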

How the results depend on the processing

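Psmb9 was lower in bone marrow at the threshold under all 15 alternatives, with log2 fold changes from -0.69 to -0.50 when 1 array was left out. No member was higher under any of them. The count of members called, all of them lower, was 3 and became 7 with quantile normalization (adding Psma1, Psma3, Psmb5 and Psme2) and 1 with median centring, and ranged from 1 to 3 when 1 array was left out. It was 1, Psmb9, when bone marrow array 1 or 3, or spleen array 3 or 4, was left out. With the mouse as a replicate block 2 members were called, Psmb9 and Psmg2, the Psme1 call ended, and no other member's call changed. Over all genes 3681 were called, 3378 with the block, and between 3144 and 3499 without 1 array. Members with a log2 fold change below 0 numbered 41 with quantile normalization and 37 with median centring. Those scalings moved the median over all genes by 0.004 and 0.009. With the block, which leaves 4 differences within mice, the smallest exact p a ratio allows is 0.125, which the Psmb9 to Psmb6 ratio had; the others had 0.75 (Psmb8 to Psmb5) and 0.38 (Psmb10 to Psmb7). Without 1 array the Psmb9 to Psmb6 difference ran from -0.70 to -0.55 and the Psmb10 to Psmb7 difference from 0.17 to 0.29. The Psmb8 to Psmb5 difference ran from -0.0075, without bone marrow replicate 4 and with the sign changed, to 0.087. Psma8 had no value with the dimmest genes left out. No detection call accompanies the intensities, so dim members may have compressed fold changes.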
